A study of Apis mellifera with 20 samples.

Results

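GB42557 and GB48492 are 2 of the 15314 gene models of the honeybee (Apis mellifera) measured here, and they were chosen by their measured expression: high in L3 larvae of both castes and in L5 workers, and near 0 in L5 queens, where L3 and L5 are larval instars. The values that chose them are the levels at L3 and L5, so those levels are given as a description, without a test. The series sequenced RNA of larvae at 5 combinations of age and caste: the first instar (L1), from which queens or workers can still develop, and both castes at L3 and at L5. Each kind has 2 libraries of RNA pulled down with an antibody against N6-methyladenosine (IP) and 2 libraries of the same kind of fragmented polyadenylated RNA without pulldown (input), 20 libraries in all. The samples are labelled as larvae, and no label used here tells how many larvae or colonies stand behind a library. A p-value therefore reflects the spread of these libraries alone, and that spread may be technical. In RNA of larvae, fewer cells that express a gene and less RNA per cell cannot be told apart.

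Queens and workers are female castes that arise from alike eggs according to the diet fed to the larva, and L5 is the last larval instar before pupation. N6-methyladenosine (m6A) is a methyl mark that a methyltransferase complex places on adenosines of messenger RNA. Reader proteins bind the mark, which is known to bear on the stability, splicing and translation of a transcript. In an m6A pulldown, the level of a gene in IP relative to input measures how far its fragments were enriched. The deposited tables hold 1 value per gene model, so single m6A sites cannot be seen, and no pulldown without the antibody was analysed here.

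GB42557 lies on the plus strand of scaffold Group7.9 from 332532 to 334683, a span of 2152 bases, among 47 models on that scaffold. GB48492 lies on the plus strand of the unplaced scaffold GroupUn4341 from 183 to 3153, a span of 2971 bases, and is the single model on it. Coordinates are those of the deposited tables, which name no genome build. Neither model overlaps another one. The files pair their IDs with no gene names, and 0 of the 15314 could be found among 12398 RefSeq genes (assembly Amel_HAv3.1), so no function can be given for any model named here. For the same reason the labelled tissue could not be checked against marker genes, and no sequence could be read. Whether either gene has a near-identical copy that shares its reads was not tested. Levels are in FPKM, fragments scaled to model length and library size, which allows levels to be compared between genes. Input libraries listed 8983 to 10564 models above 1 FPKM, and 2993 to 3822 models at 0 at L1 and L3 against 4292 to 5430 at L5. IP libraries went the other way, with 2433 to 3667 models at 0 at L1 and L3 against 1384 to 1734 at L5. They listed 8973 to 10154 models above 1 FPKM at L1 and L3 and 10223 to 11604 at L5. What this means for IP over input of low models at L5 was not tested. Read depth is unknown.

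In input libraries, GB42557 was among the most abundant transcripts of L3 larvae and L5 workers. It had 690 and 487 FPKM in L3 queens, whereas L3 workers had 460 and 473 and L5 workers 399 and 284, which placed it between rank 158 and rank 240 of the 15314 models in these libraries. L1 larvae had 132 and 93.0 FPKM (ranks 656 and 884). In L5 queens it was listed at 0 in replicate 1 and had 5.01 FPKM in replicate 2 (rank 6365). The 2 L5 queen libraries lay below all others, the L1 libraries came next, and, as deposited, L5 workers lay between L1 and L3. The order of the L3 castes depended on scaling: queens were higher as deposited, whereas after scaling to the typical gene they had 546 and 415 against 631 and 624 in workers.

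GB48492 was less abundant wherever both genes were above 0 and followed a similar order. Its input level was 137 and 91.7 FPKM in L3 queens, 123 and 116 in L3 workers and 86.4 and 27.4 in L5 workers. L1 larvae had 27.9 and 21.9 FPKM. L5 queens had 0.802 FPKM in replicate 1 and a value listed at 0 in replicate 2. The lower L5 worker library fell just below the higher L1 library, so on the deposited scale L1 and L5 workers overlapped, and the L3 castes overlapped too. After scaling, L1 had 17.7 and 15.6 against 94.2 and 35.0 in L5 workers, and L3 queens had 108 and 78.2 against 169 and 153 in L3 workers, without overlap in either case.

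The fits across all genes used log2(scaled FPKM + 1), a scale that understates changes of low genes. On it, the log2 difference of L5 queens from L5 workers was -7.25 for GB42557 and -5.42 for GB48492, the lowest and the next lowest of the 10119 genes tested. Compared with L3 queens, the differences of L5 queens were -7.51 and -6.08. L5 workers differed from L3 workers by -0.66 and -1.47. The caste difference at L5 minus that at L3 was -6.85 for GB42557, the lowest of all genes, and -4.62 for GB48492. These comparisons share libraries, and all of them entered the choice of the genes. Over all genes, 6.24% were called lower in L5 queens than in L5 workers, 24.6% lower in L5 than in L3 queens, 21.7% lower in L5 than in L3 workers, and 3.20% had a lower caste difference at L5 than at L3. Between the L3 castes, 7.61% were called in either direction, and the differences of the 2 genes, queens minus workers, were -0.40 and -0.80.

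**Figure D1:**
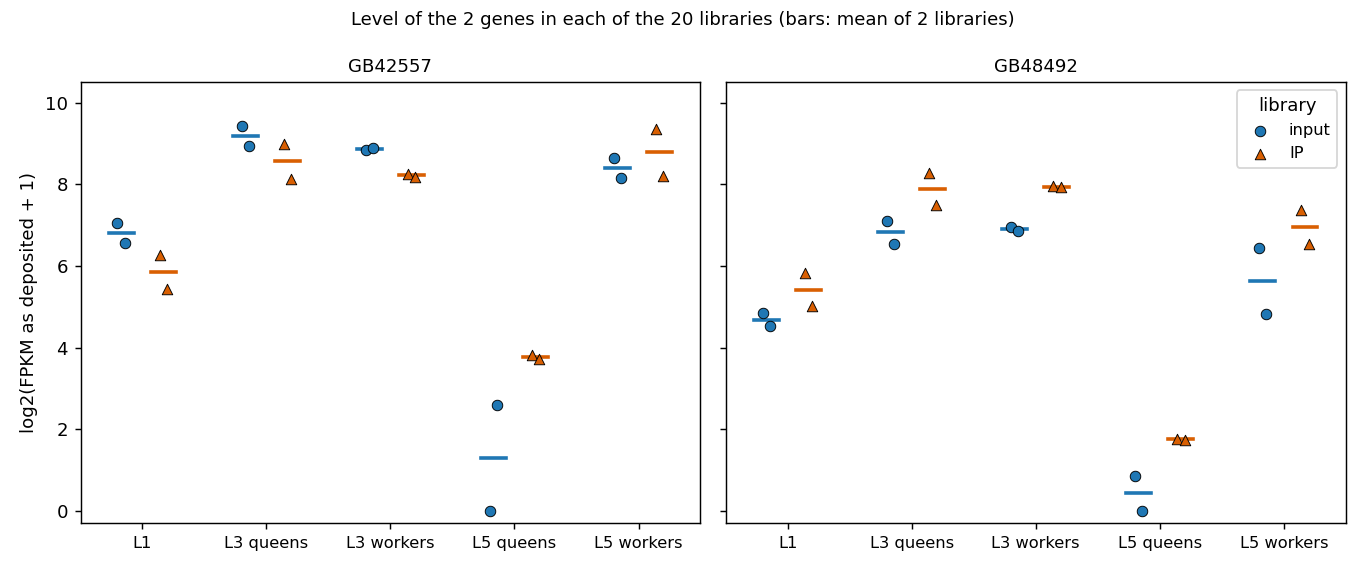
Level of GB42557 (left) and GB48492 (right) in every library, as log2 of the deposited FPKM plus 1; circles are input libraries, triangles are IP libraries and bars are the mean of the 2 libraries. Both genes are lowest in L5 queens in input and in IP, where IP values of 13.0 and 12.2 FPKM for GB42557 lie above the input values of 0 and 5.01.

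Whether IP levels entered the choice of the genes is not stated, so differences in IP level between kinds of larvae are also described and not tested. GB42557 had 13.0 and 12.2 FPKM in L5 queen IP, against 650 and 296 in L5 worker IP. L3 IP levels of GB42557 were 507 and 280 in queens and 306 and 288 in workers. GB48492 had 2.40 and 2.32 FPKM in L5 queen IP, against 166 and 92.4 in L5 workers, and its L3 IP levels were 312 and 180 in queens and 247 and 243 in workers. The values in L1 IP were 76.1 and 42.3 for GB42557 and 55.4 and 31.4 for GB48492. L5 queens were thus the lowest kind in IP as in input, without overlap with any other kind. The 2 L5 queen IP libraries differed less from each other than the 2 inputs, each of which listed 1 of the genes at 0.

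L1 levels were not part of the choice, but the L3 and L5 worker levels were, as high ones, so a rise over L1 was favoured and is described without a test. On the log2 scale of the fit, GB48492 differed from L1 by 2.40 ± 0.45 (SE, n = 2 a group) in L3 queens, 3.19 ± 0.45 in L3 workers and 1.73 ± 0.45 in L5 workers. The differences of GB42557 were 2.66 ± 0.71, 3.06 ± 0.71 and 2.40 ± 0.71 in the same order. In scaled FPKM, all libraries of these 3 kinds lay above both L1 libraries for either gene. Over all genes, 4.66% were called higher in L3 queens than at L1, 11.0% in L3 workers and 20.3% in L5 workers, and nothing is read from these shares about the 2 genes. On the FPKM as deposited, where the median of all genes shifted by -0.86, the L5 worker differences were 1.60 for GB42557 and 0.95 for GB48492. Without L5 worker input replicate 1, the L5 worker difference of GB48492 was 1.03.

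The fit used 1 spread for all groups, but L5 libraries varied more. The median SD between the 2 input libraries of a group was 0.0967 to 0.141 log2 units over all genes at L1 and L3 and 0.252 to 0.310 at L5. With a weight per library, calls over all genes in either direction numbered 4428 against 4768 for L5 workers compared with L1, and 376 against 1750 for IP over input in L5 workers. The SD of GB42557 was largest in L5 queen input, at 1.96, where 0 and 5.01 FPKM are far apart on a log scale. That of GB48492 was largest in L5 worker input, at 0.991, ahead of L5 queen input, at 0.641.

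IP over input was not a stated criterion of the choice and was tested, although its input side at L3 and in L5 workers belongs to the levels chosen as high; at L1 neither side does. GB48492 was higher in IP than in input in every kind of larva with 2 measurable inputs. Its scaled level in IP, divided by that in the same-numbered input, was 2.94 and 2.38 at L1, 1.64 and 2.86 in L5 workers, and at L3 3.03 and 2.81 in queens and 2.47 and 2.65 in workers. The fitted enrichment was 1.35 ± 0.39 log2 units at L1 (SE, n = 2 and 2, limma adjusted p = 0.0131), 1.53 ± 0.39 in L3 queens (limma adjusted p = 0.00652) and 1.35 ± 0.39 in L3 workers (limma adjusted p = 0.0128). In L5 workers it was 1.10 ± 0.39, with a 95% interval of 0.25 to 1.95, and missed the threshold (limma adjusted p = 0.0712). A replicate block pairs IP and input libraries of the same number. With it the L5 worker value had an SE of 0.22 and passed (limma adjusted p = 0.00933). The labels do not say whether such libraries come from the same RNA, and in L5 workers their deviations correlated at only 0.0793. In simulated data with the larger L5 spread, false calls in this comparison far exceeded the threshold. No enrichment in L5 workers is read from this pass. Enrichment was common: 23.9% of the 10391 genes were called higher in IP at L1, 23.0% for L3 queens, 23.2% in L3 workers and 10.3% in L5 workers. The enrichment of GB48492 exceeded that of 86.6%, 90.4%, 87.0% and 91.3% of genes in the same order.

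These calls for GB48492 depended on the fit, on single libraries and on the scaling. They passed with L1 and L3 fitted alone (limma adjusted p = 0.00131, 6.28e-04 and 0.00135 for L1, L3 queens and L3 workers). They also passed with library weights (limma adjusted p = 7.50e-04, 1.31e-04 and 1.79e-05) and with the replicate block (limma adjusted p = 0.00121, 6.52e-04 and 0.00115). They were lost without L1 IP replicate 1 or L1 input replicate 2 (1.09 and 1.24, limma adjusted p = 0.0961 and 0.0680), without L3 queen IP replicate 1 or input replicate 2 (1.25 and 1.30, limma adjusted p = 0.0619 and 0.0564), and without L3 worker IP replicate 1, IP replicate 2 or input replicate 2 (1.33, 1.37 and 1.27, limma adjusted p = 0.0569, 0.0543 and 0.0686). On the FPKM as deposited the enrichment was 0.73 for L1, 1.07 for L3 queens and 1.03 in L3 workers, where the median of all genes shifted by -0.54, -0.36 and -0.26, and none passed (limma adjusted p = 0.188, 0.0649 and 0.0818). None passed with a pseudocount of 0.1 either (limma adjusted p of 0.110 to 0.153). There the enrichments were 1.40, 1.54 and 1.35, with an SE of 0.73. In L5 workers the value hung on single libraries. It was 1.80 without L5 worker input replicate 1 but 0.41 without input replicate 2, and 0.80 without IP replicate 1. Without L5 queen input replicate 1 or 2 it was 1.10, as in the main fit. The L5 worker value missed the threshold without any L5 queen library (1.09, limma adjusted p = 0.0587). It also missed with library weights (1.10, limma adjusted p = 0.184). The L5 libraries fitted alone gave 1.13 (limma adjusted p = 0.286) and called 27 genes of all against 1750 in the fit of all groups.

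GB42557 had no called enrichment. Its scaled level in IP, divided by that in the same-numbered input, was 0.855 and 0.756 at L1, 1.39 and 0.887 in L5 workers, and at L3 0.973 and 0.825 in queens and 0.823 and 0.766 in workers. The fitted enrichment was -0.31 for L1 (95% interval -1.58 to 0.96, limma adjusted p = 0.706), -0.16 in L3 queens (-1.43 to 1.11, limma adjusted p = 0.858), -0.33 in L3 workers (-1.60 to 0.94, limma adjusted p = 0.676) and 0.15 in L5 workers (-1.12 to 1.42, limma adjusted p = 0.888). These intervals leave room for a change of more than 2-fold in either direction, apart from a rise at L1 and in L3 workers. They rest on a spread shared with the L5 queen inputs, with an SE of 0.59. Without the L5 queen libraries the SE was 0.30, and the values were -0.32, -0.16, -0.35 and 0.14 in the same order. With L1 and L3 fitted alone the SE was 0.25, and the values were -0.36, -0.21 and -0.40. None of these was called. The contrast between the genes can also be read inside each library, where no scaling enters. GB42557 exceeded GB48492 by 3.73 to 5.31 times in the 6 L1 and L3 input libraries but by 1.18 to 1.62 times in the 6 L1 and L3 IP libraries, without overlap. In L5 workers the excess was 4.62 and 10.4 times in input and 3.92 and 3.21 times in IP. In L5 queen IP it was 5.40 and 5.26 times, above all other IP libraries, and in each L5 queen input 1 of the genes is listed at 0. A test of the difference between the genes was not made.

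**Figure D2:**
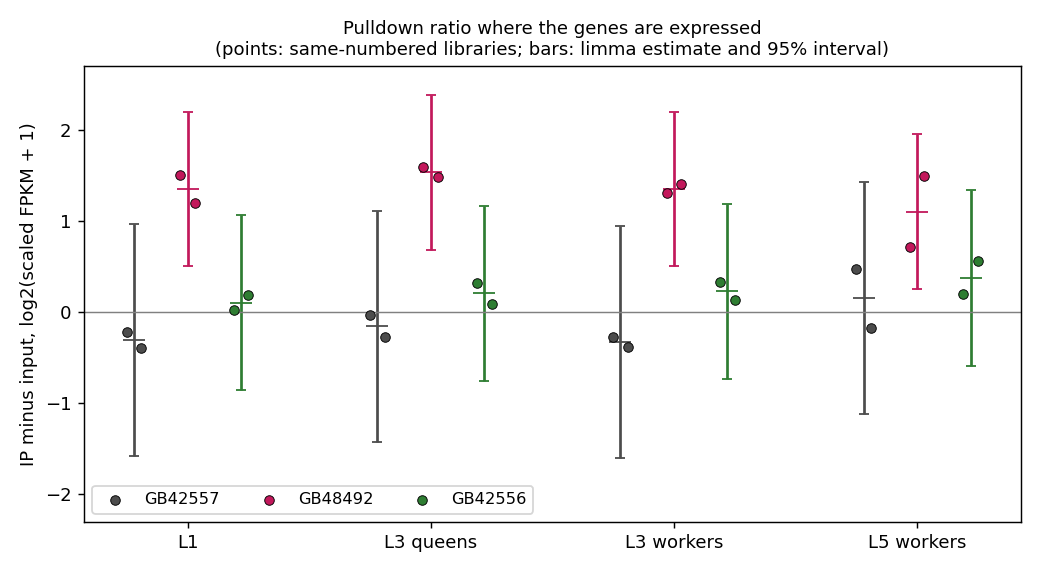
IP minus input on the log2(scaled FPKM + 1) scale for GB42557, GB48492 and GB42556, the nearest model to GB42557, in the 4 kinds of larvae that express them; points are libraries of the same number and bars are the limma estimate with its 95% interval. The intervals, which are not adjusted for the number of genes, lie above 0 for GB48492 in all 4 kinds, from 0.25 upward. In L5 workers GB48492 missed the threshold (limma adjusted p = 0.0712). The intervals of the other 2 models span 0.

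The pulldown ratio was compared between kinds of larvae that express the genes. Between L3 queens and L3 workers the enrichment differed by 0.17 ± 0.84 (SE) for GB42557 and 0.18 ± 0.56 for GB48492, with 95% intervals of -1.62 to 1.97 and -1.02 to 1.38 (limma adjusted p of 1 for both). By limma, 0 of 10391 genes (0%) passed in this comparison, 100 had an unadjusted p under 0.05, and other settings called at most 10. Between L5 and L3 workers it differed by 0.48 ± 0.84 for GB42557 and -0.25 ± 0.56 for GB48492 (limma adjusted p = 0.741 and 0.806), with 13.1% of all genes called in either direction. On the FPKM as deposited these values were 1.03 and 0.29. No difference was detectable with these spreads. In L5 queens, GB42557 had 12.2 FPKM in IP against 5.01 in input in replicate 2, a scaled ratio of 2.21, and GB48492 had 2.40 against 0.802 in replicate 1, a scaled ratio of 3.15. The other inputs are listed at 0 and give no ratio.

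The nearest model to GB42557 shared its pattern. GB42556 (Group7.9, 327832 to 331665, plus strand) ends 866 bases before GB42557 begins, on the same strand and without overlap. It was named by its position, and its test, added after its values were seen, gives no independent support for the pattern. Its input level was 9.84 and 8.55 FPKM for L5 queens, compared with 294 and 86.1 in L5 workers, 140 and 99.5 at L1 and, at L3, 804 and 464 in queens and 419 and 433 in workers. The L5 queen libraries thus lay below all others, here with measurable values in both. L5 queens were lower than L5 workers, by a fitted value of -4.06 ± 0.44 log2 units (SE, n = 2 a group, limma adjusted p = 0.00168), and differed from L3 queens by -5.47 ± 0.44 (limma adjusted p = 5.53e-05). The caste difference at L5 minus that at L3 was -3.87 ± 0.62 (limma adjusted p = 0.0110). These SEs rest on a spread shared by all groups. The SD of GB42556 itself was 1.09 in L5 worker input, 0.0674 in L5 queen input and 0.00754 in L3 worker input. Without L5 worker input replicate 1 or 2 the difference between L5 castes was -3.29 or -4.83. With the L5 input libraries fitted alone it was -4.05 (limma adjusted p = 0.0448), and library weights gave -4.06 (limma adjusted p = 0.0153). The caste difference between instars missed the threshold without L3 queen input replicate 1, L3 worker input replicate 1 or L3 worker input replicate 2 (-3.53, -3.87 and -3.86, limma adjusted p = 0.0514, 0.0528 and 0.0562).

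The ratio of GB42557 to GB42556 within a library was 0.858 to 1.10 in the 6 L1 and L3 inputs and 0.621 to 0.814 in the 6 L1 and L3 IP libraries. In L5 worker inputs it was 1.36 and 3.30, in L5 queen input replicate 2 it was 0.586, below every L1 and L3 input, and in L5 IP it was 1.65 and 1.99 in workers and 1.72 and 1.67 in queens. The 2 models therefore did not keep a fixed ratio across these libraries, and a change with age was not tested. Whether they belong to 1 transcript was not tested. On the other side, GB42530 (341826 to 342804, minus strand) starts 7142 bases after the end of GB42557. It was listed at 0 in all inputs other than those of L5 queens, which had 0.50 and 2.03 FPKM. In IP, L5 queens had 1.30 and 2.03 FPKM and L5 workers 2.92 and 1.01, so the L5 castes overlapped there. The low values of GB42530 kept it out of the test.

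**Figure D3:**
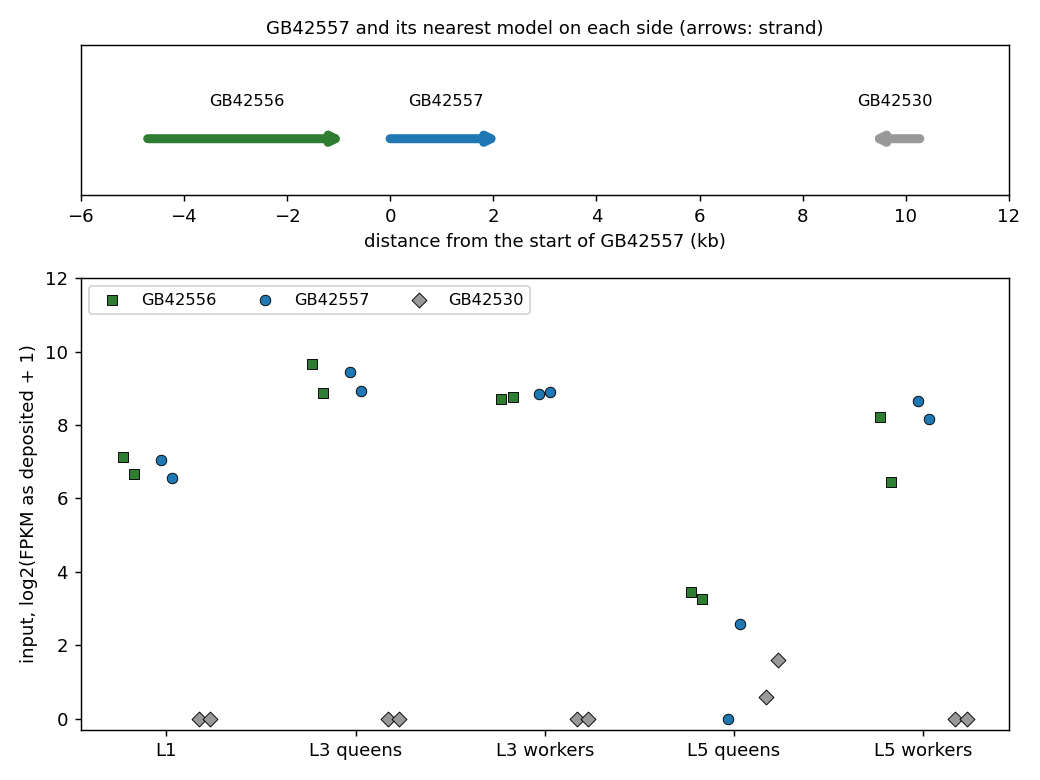
Top, GB42556, GB42557 and GB42530 drawn to scale as distance in kb from the start of GB42557, with arrows for the strand; bottom, the 2 input values of each model in every kind of larva, as log2 of the deposited FPKM plus 1. GB42556 and GB42557 are both lowest in L5 queens, at 9.84 and 8.55 FPKM and at 0 and 5.01 FPKM. GB42530 is listed at 0 in the inputs of all other kinds.

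To see how rare the pattern is, models were counted whose lowest value over the 4 L3 and 2 L5 worker inputs was at least 10 scaled FPKM and at least 10 times the higher L5 queen input. Of 3296 models at or above 10 in those 6 libraries, 7 (0.212%) met this, and GB42557 and GB48492 had the widest gaps, of 62.1 and 40.1 times. The mirror pattern, low in L5 workers and high in the other 6 libraries, was met by 0 of 3133 models. These counts are descriptions without a test, and the input pattern of the 2 genes was known when the rule was set. The count was 16 without L5 queen input replicate 1, 14 without L5 queen input replicate 2, and 11 without L5 worker input replicate 2. GB42556 was the model closest to the limit on the inside, with an L5 queen level of 0.0974 of the lowest other library, and GB46299 the closest on the outside, with 0.112.

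The other 5 models with this pattern were GB42556, GB55669, GB48823, GB53414 and GB50026, and they differed before the fifth instar. In L5 queen input, GB55669 (Group2.19, 3777733 to 3779223, plus strand) had 1.97 and 1.65 FPKM, whereas L5 workers had 94.3 and 71.4, and it was higher in L3 workers (211 and 186) than in L3 queens (73.5 and 78.2). GB50026 (Group15.19, 1934627 to 1937213, minus strand), the most abundant, had L5 queen levels of 29.5 and 70.2 FPKM, whereas L5 workers had 1056 and 1192, and at L3 had 1176 and 2116 in queens against 7757 and 7580 in workers. In both models the L3 worker libraries lay above the L3 queen libraries, a gap that GB42557 and GB48492 did not show as deposited. After scaling the 2 genes did show it. GB42557 then had 546 and 415 in queens against 631 and 624 in workers, and GB48492 had 108 and 78.2 against 169 and 153. GB53414 (Group9.12, 944207 to 948520, plus strand) showed the gap as deposited, with L3 levels of 53.5 and 64.6 FPKM in queens and 246 and 278 in workers. Its L5 queen inputs had 1.25 FPKM and a value listed at 0, against 19.1 and 17.0 in L5 workers. GB48823 (GroupUn14, 89412 to 90516, minus strand) was highest at L1, with 888 and 632 FPKM, as deposited, and its L5 levels were 3.17 and 1.55 in queens and 95.8 and 55.3 in workers.

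The same rule, applied to the IP libraries, was met by 6 models, all of which were among the 7 of the input libraries. The exception was GB53414, whose lowest other IP library exceeded the higher L5 queen IP by 2.26 times, against 15.3 times in input. For GB42557 the IP gap was 21.9 times and for GB48492 36.8 times.

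**Figure D4:**
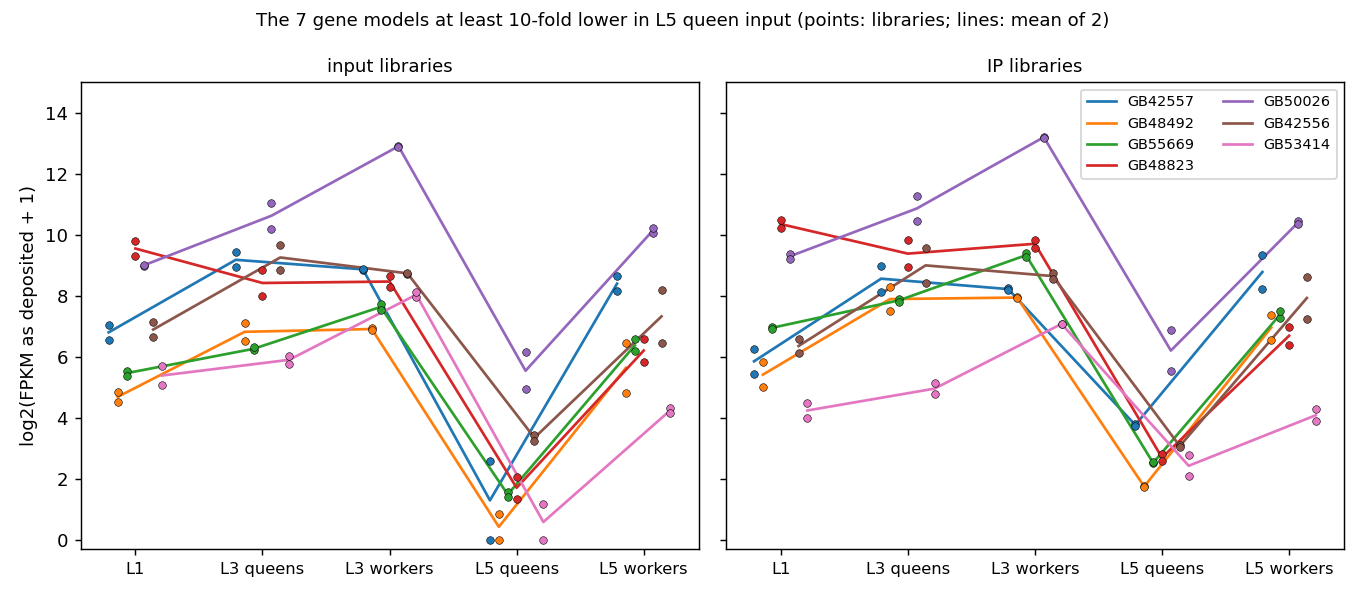
The 7 models at least 10-fold lower in L5 queen input than in the L3 and L5 worker inputs, in input libraries (left) and IP libraries (right), as log2 of the deposited FPKM plus 1; points are libraries and lines join the means of 2. All 7 dip in L5 queens on the left, and on the right GB53414 dips least, by 2.26 times after scaling.

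Over the 10 input libraries the 2 genes correlated with each other at Pearson's r = 0.945, given as a description because all genes share these libraries and both are near 0 in the same 2 of them. The models most like GB42557 among the 10119 tested were GB41581 (GroupUn166, r = 0.972), GB42704 (Group9.10, r = 0.960) and GB40253 (GroupUn406, r = 0.954). Their levels and gaps were smaller. GB41581 had 1.12 FPKM and a value listed at 0 in L5 queen input, against 6.49 and 5.55 in L5 workers, GB42704 had 7.62 and 9.38 against 54.5 and 32.5, and GB40253 had 8.41 and 17.0 against 75.8 and 46.3. The models most like GB48492 were its fellow GB42556 (r = 0.987), GB42704 (r = 0.970) and GB55669 (r = 0.965). With a pseudocount of 0.1, 2 of the 3 remained for GB42557 and 0 of the 3 for GB48492, and with FPKM as deposited 1 and 3 remained.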

How the data were processed

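RNA of 20 libraries was measured, 10 of them IP. The deposited tables hold 1 FPKM per gene model and library, which the authors made after alignment with HISAT2 2.1.0, per the submitters' processing notes; neither the genome build nor the annotation nor the program behind the FPKM was named. Per the labels' protocols, libraries were made with a NEBNext Ultra kit, and the strand of a read is then not known. Depth is unknown: among low models of an input group, the commonest ratio between replicates held for at most 2.33%, so no whole reads could be recovered.

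Each library was scaled by a median-of-ratios factor over the models with more than 1 FPKM throughout (7511 in the inputs, 6947 in all 20 libraries). The filter was a mean of 1 scaled FPKM, which 10119 and 10391 genes passed. The log2 of the value plus 1 was modelled in R 4.3.3 by limma 3.58.1 with a trend in the spread, which all groups shared. Benjamini-Hochberg adjustment ran over all genes, with a threshold of 0.05. The fit was tested on simulated data: with a common spread, false calls stayed near the threshold, whereas with the larger spread of the L5 libraries simulated they far exceeded it in comparisons of L5 workers with L1 or of their IP with input, and exceeded it less in L5 minus L3 workers. A group with 1 library left is assumed to vary like the others. Figures were drawn with matplotlib 3.10.9. The alternatives were another pseudocount, no filter, unscaled FPKM, a replicate block, a weight per library, subsets of the groups and each library left out.

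Named models are the 2 genes, the nearest model on each side, the 3 most correlated models per gene and the models with the same input pattern; GB46299, just outside that pattern, was named after its values were seen. The genes, lists and rules were chosen with earlier results of these data known.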

Additional observations from a re-analysis of the deposited data

How the results depend on the processing

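Values below are log2 differences. Those from L1 are given as sizes without a test and support no rise, since the genes were chosen for high levels. With a pseudocount of 0.1, GB48492 differed from L1 by 2.46 in L3 queens, 3.26 in L3 workers and 1.78 in L5 workers. GB42557 differed by 3.07 in L3 workers and 2.41 in L5 workers. IP over input of GB48492 no longer passed with this pseudocount (1.40 for L1, 1.54 for L3 queens, 1.35 for L3 workers). On FPKM as deposited, GB42557 differed from L1 by 2.38 in L3 queens. The L5 worker differences from L1 were 1.60 for GB42557 and 0.95 for GB48492. IP over input of GB48492 did not pass as deposited (0.73, 1.07 and 1.03), and its L5 minus L3 worker difference turned to 0.29. GB42557 in L3 queens differed from L1 by 2.66 with a weight per library, 2.67 with L1 and L3 fitted alone and 2.66 without the L5 queen libraries. The cause of these changes was not tested.

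With each library left out in turn, differences from L1 ranged for GB42557 from 2.46 to 2.85 in L3 queens, 2.89 to 3.22 in L3 workers and 2.23 to 2.56 in L5 workers, and for GB48492 from 2.16 to 2.62 in L3 queens and 1.03 to 2.44 in L5 workers. IP over input of GB48492 ranged from 1.09 to 1.60 at L1, 1.25 to 1.82 in L3 queens, 1.27 to 1.41 in L3 workers and 0.41 to 1.80 in L5 workers, and that of GB42557 from -0.58 to -0.04 at L1 (-0.95 as deposited), -0.47 to 0.16 in L3 queens and -0.29 to 0.60 in L5 workers. The L3 queen minus L3 worker difference ranged from -0.15 to 0.49 for GB42557 and -0.11 to 0.47 for GB48492, and the L5 minus L3 worker difference from 0.04 to 0.93 for GB42557 and -0.92 to 0.46 for GB48492. The caste difference of GB42556 at L5 minus L3 ranged from -4.64 to -3.10. The count of models with the pattern, 7 as reported, ranged from 7 to 16, and was 20 with a 5-fold gap and 4 with a 20-fold gap; both genes met every version of it that changed the gap, the minimum or the scaling.

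Deviations of libraries with the same replicate number correlated between input groups from -0.0256 to 0.365. Between IP and input they correlated at 0.646 at L1, 0.634 in L3 queens and 0.426 in L5 queens. In L3 workers the value was 0.163 and in L5 workers 0.0793. The labels do not say whether libraries of the same number come from the same RNA. The main fit therefore did not take the numbers as pairs. The replicate block brought IP over input of GB48492 in L5 workers past the threshold at 1.10 (limma adjusted p = 0.00933) and changed no other call on GB42557, GB48492 or GB42556.

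Counts over all genes, in either direction, moved more. Against L1, 871 genes were called in L3 queens (331 to 1289 with a library left out, 2050 with weights, 2231 with L1 and L3 alone) and 1955 in L3 workers (721 to 2750, 4519 and 4155, and 5972 as deposited). For IP over input in L3 workers, 4673 were called, and 7201 with weights. For L5 workers, 1750 were called (417 to 2318 with a library left out, 3355 without the filter, 3298 with the block, 376 with weights, 27 with L5 alone), and for L5 minus L3 workers 1364 (431 to 1833, 3019 with the block, 2145 without L5 queens). The background shares in the report move with these counts.

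Groups of 2 libraries give no outlier check, the L5 instar cannot be told apart from how its libraries were made, and the standard errors rest mostly on the L5 queen inputs for GB42557 and on the L5 worker inputs for GB48492.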

Other observations

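In L5 queens, GB42557 had 13.0 and 12.2 FPKM in IP, against 5.01 FPKM and a value listed at 0 in input. Of 8633 models under 6 FPKM in both L5 queen inputs, 7 (0.0811%) had over 12 FPKM in both L5 queen IP libraries, GB42557 among them. These limits were set beside its own values, and its low input was a reason for its choice, so the count is a description and shows nothing particular to it. For GB48492, the same count with limits of 1 FPKM in input and 2 FPKM in IP gave 152 of 5212 models (2.92%).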
